A study of Mus musculus with 12 samples.

Results

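The comparison set 3T3-L1 adipocytes exposed to berberine for 12 h against the same cells exposed for 3 h, so that it follows the course within treated cells and leaves the vehicle control out of the contrast. It uses 6 of the 12 arrays of the series, 3 from the 3 h group and 3 from the 12 h group, chosen by their labels and not by any measured value. 3T3-L1 is an established mouse fibroblast-derived line that stores fat after hormonal induction. All cells, the DMSO controls included, had been turned into adipocytes by a cocktail of 1 µM dexamethasone, 0.5 mM IBMX (3-isobutyl-1-methylxanthine) and 5 µg/ml insulin given over 48 h. They were used between days 8 and 10, after 12 h in medium without serum that held 0.2% bovine albumin. The berberine groups received 5 µM berberine for 3 h, 6 h or 12 h, and RNA was hybridised to single-colour Affymetrix mouse arrays, 3 a group. The labels give no duration for DMSO and no vehicle samples matched to each time. A longer exposure to berberine and other changes with time in culture therefore cannot be told apart in this comparison. The labels give the same 12 h without serum for every group. If the medium stayed without serum during exposure, a longer time without serum is among those changes. Nothing in the labels says that the 3 arrays of a group came from separate cultures, so the p-values reflect only how far these samples differed from each other, and that spread may be technical.

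Berberine is a plant alkaloid known to inhibit complex I of the respiratory chain and to activate the kinase AMPK. Mitochondrial and amino acid stress are known to engage the integrated stress response, in which phosphorylation of the initiation factor eIF2 lowers general translation and favours translation of the transcription factor ATF4. ATF4 and its partners then act on genes for amino acid synthesis, amino acid import and tRNA charging. In adipocytes, the fat store is built by triglyceride synthesis under PPARγ, C/EBPα and SREBP1, is coated by droplet proteins such as the perilipins and CIDEC, and is broken down by a chain of lipases.

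The values are log2 signals made with MAS5, the Affymetrix algorithm that scales each array by 1 factor. A gene was tested where at least 3 of 12 arrays reached the detection threshold of 5.77, the median log2 signal of all probe sets on the arrays, and each gene was represented by its brightest probe set. The share of probe sets at or above the threshold was 49.2% to 50.67% at 3 h and 49.47% to 50.78% at 12 h. Across genes, arrays of 1 time correlated at 0.968 to 0.973 and arrays of different times at 0.962 to 0.966, where genes are not independent replicates. Of 17 mature adipocyte markers on the array, all 17 reached the threshold, and their summed linear signal was 271556 to 304288 at 3 h and 254020 to 275653 at 12 h. The summed signal of 16 fibroblast and preadipocyte markers was 138593 to 145861 at 3 h and 131602 to 145771 at 12 h. Of 13 macrophage, 11 endothelial and 12 muscle markers, 8, 6 and 6 reached the threshold on any array, and defining genes such as Ptprc, Itgam, Cdh5, Tie1 and Myod1 were under it on all arrays. In bulk RNA, fewer cells of a type and less RNA per cell cannot be told apart.

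Between 3 h and 12 h the adipocytes raised stress and interferon genes and lowered genes of fat storage and glycolysis. Of 12136 genes tested, 2150 changed (17.7%) in limma's moderated test at a Benjamini-Hochberg adjusted p under 0.05. Of these, 972 were higher at 12 h (8.01% of the genes tested) and 1178 were lower (9.71%). Most differences were small: 1401 of the 2150 were under 0.5 on the log2 scale, and 130 reached 1, with 54 higher and 76 lower. The median difference over all genes tested was -0.0241, and the middle 90% lay between -0.70 and 0.59. The arrays of the 2 times did not overlap in 2100 of the 2150 called genes and in 4095 of all genes tested (33.7%). The share of genes called rose with signal, from 1.81% in the dimmest of 5 equal classes of genes to 30.6% in the brightest, so a dim gene had less chance of a call. All differences below are 12 h minus 3 h on the log2 scale, with limma's standard error (SE) over 3 arrays a group, and each adjusted p is taken over all 12136 genes.

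**Figure D1:**
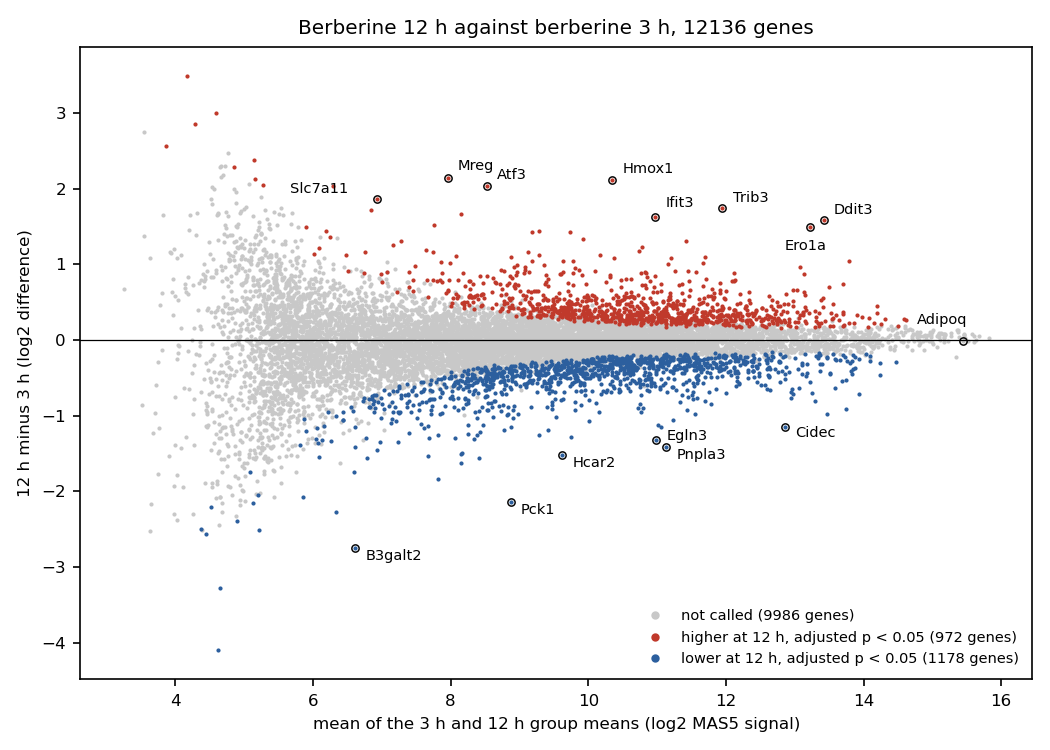
Each point is 1 of 12136 genes, with the average of the 3 h and 12 h mean log2 signals on the horizontal axis and the log2 difference, 12 h minus 3 h, on the vertical axis. Red points are the 972 genes higher at 12 h and blue points the 1178 lower genes, and the widest scatter without a call lies among the dim genes on the left.

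Regulators of the integrated stress response made up 4 of the 15 largest rises. Of the 21 regulators tested, 12 were higher at 12 h and 0 lower, against 8.01% and 9.71% of all genes, and the median of the list was 0.27 against -0.0241. This list, like all lists here, was written with earlier results of these data known. Atf4, the transcription factor at the head of the response, read 13.19, 13.24 and 12.98 on the 3 h arrays and 13.81, 13.90 and 13.82 on the 12 h arrays. Each 12 h array was above each 3 h array, with a difference of 0.71 (SE 0.07, adjusted p = 1.4e-06). Ddit3, which encodes the transcription factor CHOP, read 12.70, 12.57 and 12.60 at 3 h and 14.17, 14.27 and 14.19 at 12 h. The groups lay far apart relative to their own spread, with a difference of 1.58 (SE 0.06, adjusted p = 2.9e-11), the smallest adjusted p among the genes named here. The second kept probe set of Ddit3 gave a smaller difference of 0.57.

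Atf3, a stress-induced partner of the same factors, read 7.46, 7.81 and 7.23 at 3 h and 9.37, 9.55 and 9.71 at 12 h, a rise of 2.04 (SE 0.21, adjusted p = 3.6e-06), or 4.12-fold. Trib3, a pseudokinase induced by ATF4 and CHOP, read 11.06, 11.09 and 11.08 at 3 h and 12.77, 12.88 and 12.83 at 12 h, a rise of 1.75 (SE 0.10, adjusted p = 4.1e-09). In both genes no 3 h array came near the 12 h arrays, although the rule for the largest rises already required that the times not overlap. Ppp1r15a, the phosphatase subunit GADD34 that dephosphorylates eIF2, rose by 1.44 (SE 0.13, adjusted p = 6.9e-07), while its constitutive relative Ppp1r15b rose by 0.41. Atf5 rose by 0.78 and Nupr1, a small stress-response chromatin protein, by 0.75.

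Not every gene of the pathway was called. Chac1, a glutathione-degrading enzyme, read 10.96, 10.92 and 10.93 at 3 h and 10.83, 10.99 and 10.99 at 12 h, and the arrays of the 2 times overlapped. Its difference was 0.00 (SE 0.09, adjusted p = 0.99), with 11.24, 11.14 and 11.49 on the 6 h arrays between the 2 times and 9.84 as the DMSO mean. Chac1 therefore already stood above its DMSO level at 3 h. Sesn2, a sensor of leucine that restrains mTORC1, was at -0.31 (SE 0.25, adjusted p = 0.46), and Cebpb, a partner of ATF4, at 0.07 (SE 0.06, adjusted p = 0.49).

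Some genes that make, import and charge amino acids rose too. Of 20 genes for amino acid synthesis and one-carbon metabolism, 8 were higher and 2 lower, with a median of 0.26. Asns, asparagine synthetase, read 12.56, 12.79 and 12.58 at 3 h and 13.23, 13.31 and 13.38 at 12 h, a rise of 0.66 (SE 0.08, adjusted p = 2.9e-05). Got1, the cytosolic aspartate aminotransferase, rose by 0.85 (SE 0.11, adjusted p = 3.8e-05). The mitochondrial folate enzyme Mthfd2 rose by 0.68 and Aldh1l2, its neighbour in the folate pathway, by 0.50. In serine synthesis, Psph rose by 0.50 and Phgdh by 0.26, while Psat1 was at -0.04 (SE 0.06, adjusted p = 0.75). Cth, which makes cysteine from cystathionine, rose by 0.46. The 2 enzymes that fell were Glul, glutamine synthetase, by 0.65, and the alanine aminotransferase Gpt, by 0.35. Gpt lost its call without the second 3 h array (adjusted p = 0.056).

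Among 19 amino acid transporters tested, 4 rose and 1 fell, with a median of 0.05. Slc7a11, the cystine importer xCT, read 5.87, 6.39 and 5.74 at 3 h and 7.60, 8.23 and 7.77 at 12 h, a rise of 1.86 (SE 0.28, adjusted p = 0.00018). It lay close to the detection threshold at 3 h and clear of it at 12 h. Slc7a5, the leucine carrier LAT1, rose by 0.89 (SE 0.08, adjusted p = 5.3e-07), and Slc3a2, the heavy chain both carriers share, by 0.33 (SE 0.10, adjusted p = 0.03). Slc1a5, a glutamine carrier, rose by 0.32 and Slc43a1, a facilitator of branched-chain amino acids, fell by 0.51. Without the third 12 h array, the first 3 h array or the second 3 h array, 2 transporters were called higher in place of 4. Slc3a2 kept its call only without the first 12 h array, with an adjusted p of up to 0.154 without another array. Slc1a5 lost its call without the second or the third 12 h array or the first or second 3 h array (adjusted p up to 0.0824). Slc43a1 lost it without the first 12 h array or the first or second 3 h array (adjusted p up to 0.131).

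Of 19 cytosolic aminoacyl-tRNA synthetases, the enzymes that load amino acids onto tRNA, 9 were higher and 0 lower, with a median of 0.18. Cars rose by 0.72 (SE 0.12, adjusted p = 0.00029), Aars by 0.66 (SE 0.08, adjusted p = 1.1e-05) and Eprs by 0.60. Iars and Sars each rose by 0.58, and Lars rose by 0.45. The same number of synthetases, 9, was called when any one of the 6 arrays was left out.

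ATF4 and its C/EBP partners are known to bind the sequence TGATGNAA, and the promoters of several of these genes hold it close to the transcription start. In 250 bases before each RefSeq start (build GRCm38.p6), searched on both strands, TGATGNAA occurred in 2.29% of the 9806 tested genes that have a window. It occurred in 4.05% of the 791 genes higher at 12 h with a window and in 2.62% of the 954 lower genes with a window. Among all tested members with a window, it occurred in 5 of 18 regulators, 3 of 17 amino acid enzymes and 3 of 12 synthetases, and among the called members in 4 of 10, 3 of 7 and 3 of 6. The windows of Ddit3, Trib3, Atf4 and Ppp1r15a held no match, which says only that these letters are not in those 250 bases. A match describes the sequence and is not evidence of a bound site. The stretches below are shown because these 6 genes rose and hold the letters, each read 5′ to 3′ on the gene's strand with the match in capitals: Atf3 (chr1:191183406-191183473, minus strand), Slc7a11 (chr3:50443623-50443709, minus), Nupr1 (chr7:126625543-126625610, minus), Aars (chr8:111033700-111033767, plus), Got1 (chr19:43524670-43524737, minus) and Asns (chr6:7693210-7693262, minus). In Slc7a11 a pair of matches on opposite strands lies from 66 to 40 bases before the start, and in the other genes the match stands once.
Atf3: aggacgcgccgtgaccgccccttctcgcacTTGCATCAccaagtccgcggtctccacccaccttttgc
Slc7a11: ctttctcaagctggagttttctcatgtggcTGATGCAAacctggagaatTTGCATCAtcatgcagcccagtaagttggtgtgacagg
Nupr1: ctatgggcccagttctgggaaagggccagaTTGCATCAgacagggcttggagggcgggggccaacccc
Aars: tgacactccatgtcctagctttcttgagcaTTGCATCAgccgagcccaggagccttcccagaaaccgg
Got1: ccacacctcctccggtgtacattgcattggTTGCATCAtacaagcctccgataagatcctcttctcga
Asns: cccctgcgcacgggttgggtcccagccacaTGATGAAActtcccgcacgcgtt

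**Figure D2:**
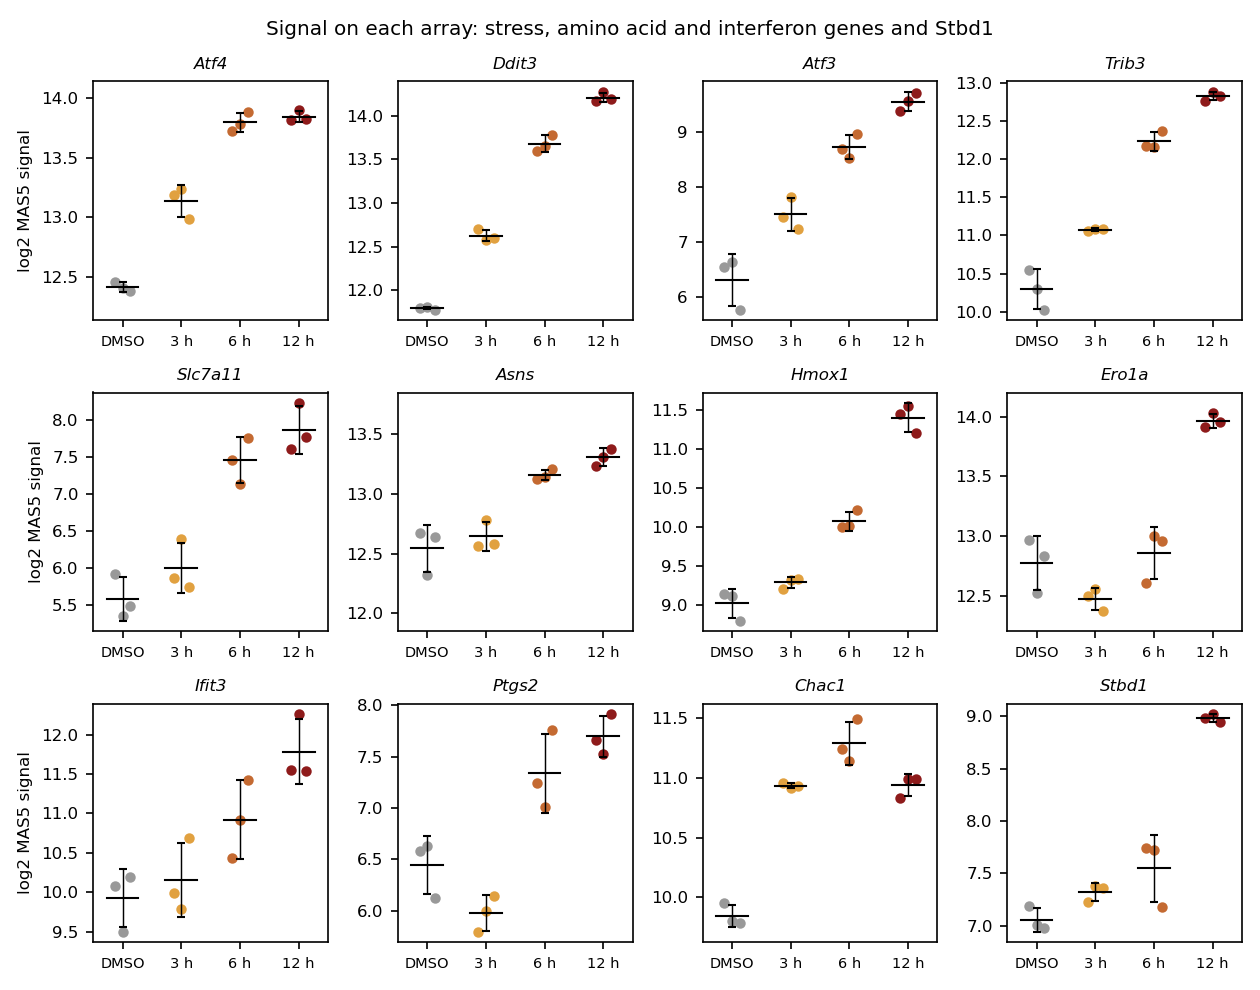
Log2 MAS5 signal of 12 genes on each of the 12 arrays, by group, with 1 point an array, a bar at the group mean and whiskers of 1 SD (n = 3). The 12 h arrays lie above the 3 h arrays in every panel but Chac1, whose 3 h and 12 h arrays overlap near 11 and stand above DMSO. The vertical axes differ between panels and do not start at 0.

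Hmox1, which encodes the haem-degrading enzyme haem oxygenase 1, had the largest rise next to Mreg among genes with both means above the threshold. It read 9.21, 9.32 and 9.33 at 3 h and 11.46, 11.56 and 11.20 at 12 h. The difference was 2.12 (SE 0.11, adjusted p = 1.8e-09), or 4.35-fold, and at 6 h the arrays read 10.00, 10.01 and 10.21. Hmox1 is a known target of NRF2, the transcription factor of the antioxidant response. Of 26 NRF2 and oxidative stress genes tested, 9 were higher and 0 lower, with a median of 0.10. Sqstm1, the autophagy receptor p62, rose by 0.80 (SE 0.07, adjusted p = 5.1e-07), Srxn1 (sulfiredoxin) by 0.52 and Gclm, a subunit of the glutathione-making ligase, by 0.46. Averaged over their probe sets, Srxn1 (0.46, adjusted p = 0.165) and Gclm (0.25, adjusted p = 0.0566) were not called. The gene for NRF2 itself, Nfe2l2, rose by 0.43, although its other kept probe set was at -0.06. Other known NRF2 targets were not called: Nqo1 was at 0.02 (SE 0.12, adjusted p = 0.94), Txnrd1 at 0.08 (SE 0.11, adjusted p = 0.68) and Gclc at 0.13 (SE 0.17, adjusted p = 0.68). The antioxidant element to which NRF2 binds was searched as TGANNNNGC on both strands. Among genes of this list with a window, it occurred in 9 of 21 tested (42.9%) and 4 of 7 called (57.1%). It occurred in 41.5% of all tested genes.

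Genes of the endoplasmic reticulum moved in both directions. Of 28 chaperones and unfolded protein response genes, 7 were higher and 5 lower, with a median of -0.09. Ero1a, the oxidase that drives disulfide bond formation, read 12.50, 12.56 and 12.38 at 3 h and 13.91, 14.03 and 13.95 at 12 h, a rise of 1.49 (SE 0.10, adjusted p = 6.8e-08). Edem1, which marks misfolded glycoproteins for disposal, rose by 0.80, and Ern1, which encodes the stress sensor IRE1α, by 0.73. Averaged over its probe sets, Ern1 was at 1.01 without a call (adjusted p = 0.117). Hspa5, the main luminal chaperone BiP, rose by 0.27 (SE 0.09, adjusted p = 0.046), a call lost without any one of the 6 arrays (adjusted p = 0.06 to 0.148). In contrast, the co-chaperones Dnajb9 and Dnajc3 each fell by 0.36 and Creld2 by 0.45. The other kept probe sets of Dnajc3 ranged from -0.45 to 0.07, and the mean of its probe sets was not called (-0.24, adjusted p = 0.107). The 5 lower genes became 3 without the first or second 3 h array. Xbp1, a transcription factor of the response, was at -0.03 (SE 0.06, adjusted p = 0.80). Of 18 cytosolic heat shock genes 4 rose and 0 fell, led by the transcription factor Hsf2, which rose by 1.11 (SE 0.17, adjusted p = 0.00014), and Hspa1b was at 0.07 (adjusted p = 0.53). Hspa1b shares nearly all its sequence with its neighbour gene, so its signal may hold both.

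Among 17 mitochondrial chaperones and proteases, 4 rose and 4 fell. The matrix chaperone Hspa9 rose by 0.35 and the matrix protease Lonp1 by 0.33, and the inner membrane protease Oma1, known to relay mitochondrial stress to the integrated stress response, fell by 0.65. Without the second 12 h array 2 members were called higher in place of 4, and Lonp1 lost its call there (adjusted p = 0.0657) and without the first 3 h array (adjusted p = 0.0519). Of 19 p53 and growth arrest genes, 4 rose and 3 fell. Gadd45a read 11.68, 11.79 and 11.56 at 3 h and 12.49, 12.56 and 12.62 at 12 h, a rise of 0.88 (SE 0.08, adjusted p = 6.3e-07). Its relative Gadd45g moved the other way, from 9.26, 9.36 and 9.30 to 8.48, 8.25 and 8.23, a fall of 0.99 (SE 0.13, adjusted p = 3.2e-05). Cdkn1a, the cell cycle inhibitor p21, was at -0.17 (SE 0.09, adjusted p = 0.22). Of 13 genes of the BCL2 family, 1 was higher and 1 lower, a share of 15.4% beside 17.7% for all genes. Mcl1, which protects cells from apoptosis, rose by 0.26 and the mitophagy receptor Bnip3 fell by 0.54. Of the 5 other kept probe sets of Mcl1, 4 were below 0, in a range from -0.08 to 0.32, and the mean of its probe sets was at 0.06 (adjusted p = 0.604). Mcl1 kept its call without the second 12 h or the second 3 h array and lost it without any other (adjusted p up to 0.104).

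Interferon-stimulated genes, the antiviral genes that cells switch on in response to interferon, formed the list with the largest share of calls upwards. Of 25 tested, 18 were higher and 0 lower, all 25 differences were above 0, and the median was 0.65. Ifit3, an antiviral RNA-binding protein, read 10.00, 9.79 and 10.69 at 3 h and 11.55, 12.26 and 11.54 at 12 h, a rise of 1.62 (SE 0.25, adjusted p = 0.00021). Rsad2, the antiviral enzyme viperin, read 7.77, 8.62 and 9.03 at 3 h and 9.76, 10.28 and 9.66 at 12 h, a rise of 1.42 (SE 0.33, adjusted p = 0.0059). The 3 h arrays of these genes were spread more widely than those of the stress genes. That no 3 h array reached a 12 h array was required by the rule for the largest rises, to which both genes belong. Ifit1 rose by 1.34 (SE 0.24, adjusted p = 0.00077), Ifit2 by 1.13 and Oasl2 by 1.03. Ifit1, Ifit2 and Ifit3 are related in sequence, and how far their probe sets share transcripts was not tested.

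The interferon genes varied together within each time. The third 3 h array gave the highest reading of its group in 17 of the 25 genes, and the second 12 h array did so in 19. The first 3 h array was lowest in 18 and the third 12 h array in 16. The count of called members was 11 in place of 18 without the second 12 h array, and also 11 without the first 3 h array. It was 14 to 17 without any other one of the 6 arrays, and no member was called lower in any of these fits. Irf9, the DNA-binding subunit of the interferon-induced complex, rose by 0.65 (SE 0.15, adjusted p = 0.0046), and Ddx58, which encodes the RNA sensor RIG-I, by 0.43 (SE 0.13, adjusted p = 0.029). Ddx58 lost its call without any one of the 6 arrays (adjusted p = 0.0557 to 0.0919). Stat2 was at 0.57 (SE 0.23, adjusted p = 0.10). Ifnb1, the gene for interferon β, was under the threshold in both group means and had no call. The summed signal of the 13 macrophage markers was 1091 to 1233 at 3 h and 1130 to 1398 at 12 h. Of these markers, 8 reached the threshold on any array, and Cd163, Itgam, Mrc1, Ptprc and Tyrobp were under it on all arrays. The 5 that were tested ran from -0.20 to 0.92, with 0 called. Which cells gave the interferon signal was not tested.

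The interferon-stimulated response element was taken as TTTC, any 2 bases and TTTC again, a pattern searched after the rise of these genes had been seen. It occurred on either strand within 250 bases before the start in 10 of the 21 tested and 8 of the 17 called interferon genes with a window, against 3.10% of tested genes and 2.94% of the genes that were lower at 12 h. The 4 stretches below are from called genes that hold the pattern, chosen after their values were seen, and run in the gene's direction with the matches in capitals: Ifit1 (chr19:34640755-34640843, plus strand), Ifit3 (chr19:34583343-34583446, plus), Gbp3 (chr3:142559969-142560043, plus) and Rsad2 (chr12:26456533-26456602, minus), from RefSeq GRCm38.p6. Ifit1, Ifit3 and Gbp3, a guanylate-binding protein whose gene rose by 0.92, each hold a pair of matches. In Gbp3 the pair overlaps by 4 bases, so that the repeat runs on without a gap. Gbp3 lost its call without the second 12 h array (adjusted p = 0.0825) or the first 3 h array (adjusted p = 0.08).
Ifit1: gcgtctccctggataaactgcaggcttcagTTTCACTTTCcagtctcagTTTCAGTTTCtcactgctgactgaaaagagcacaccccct
Ifit3: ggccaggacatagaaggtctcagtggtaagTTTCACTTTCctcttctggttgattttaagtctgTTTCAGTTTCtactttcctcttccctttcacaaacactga
Gbp3: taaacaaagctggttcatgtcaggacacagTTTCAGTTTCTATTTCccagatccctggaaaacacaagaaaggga
Rsad2: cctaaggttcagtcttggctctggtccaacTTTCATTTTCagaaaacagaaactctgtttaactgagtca

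Inflammatory genes outside the interferon group did not move as a block. Of 26 tested, 4 were higher and 3 lower, with a median of 0.01, and the 4 became 1 to 3 when any one of the 6 arrays was left out. Ptgs2, the prostaglandin-forming enzyme COX-2, read 5.80, 5.99 and 6.14 at 3 h and 7.66, 7.52 and 7.91 at 12 h, a rise of 1.72 (SE 0.26, adjusted p = 0.00015). Its 3 h readings stood at the detection threshold and its 12 h readings clear of it. Il6, an inflammatory cytokine, rose by 0.65 (SE 0.21, adjusted p = 0.04), from 6.95, 7.18 and 7.25 to 7.77, 7.69 and 7.86. That call was lost without any one of the 6 arrays (adjusted p = 0.0595 to 0.138). The chemokines Ccl2 at -0.19 (SE 0.12, adjusted p = 0.29), Ccl7 at -0.09 (SE 0.13, adjusted p = 0.71) and Cxcl1 at 0.22 (SE 0.13, adjusted p = 0.29) were not called. The 3 genes that fell all restrain NF-kB: Nfkbie by 1.03 (SE 0.16, adjusted p = 0.00027), Nfkbia by 0.45 (SE 0.08, adjusted p = 0.00095) and Tnfaip3 by 0.42 (SE 0.12, adjusted p = 0.017). The other kept probe set of Nfkbie was at -0.17. Tnfaip3 lost its call without the second 12 h array (adjusted p = 0.08) or the first 3 h array (adjusted p = 0.103).

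Oxygen-sensing and glycolytic genes fell, in part. Under the hypoxia-inducible factor HIF-1, glycolytic enzymes and the prolyl hydroxylases that destabilise HIF-1α are known to be induced together. Of 28 HIF subunits and targets outside glycolysis, 3 were higher and 9 lower, with a median of -0.08. Egln3, the prolyl hydroxylase PHD3, read 11.71, 11.72 and 11.49 at 3 h and 10.33, 10.42 and 10.22 at 12 h, a fall of 1.32 (SE 0.11, adjusted p = 4.4e-07). Egln1, the prolyl hydroxylase PHD2, fell by 0.95 (SE 0.15, adjusted p = 0.00021). Ak4, an adenylate kinase of mitochondria, fell by 0.65, and Fam162a and Higd1a, also mitochondrial proteins, by 0.53 and 0.47. Ak4 lost its call without the third 12 h array (adjusted p = 0.0532) or the first 3 h array (adjusted p = 0.0574). Hif1a itself was slightly higher, by 0.24 (SE 0.06, adjusted p = 0.01), with other kept probe sets between -0.02 and 0.17.

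Other members of the same list were not called. Ankrd37 read 6.79, 6.84 and 6.33 at 3 h and 6.45, 6.68 and 6.69 at 12 h, beside a DMSO mean of 9.15. Its difference was -0.04 (SE 0.23, adjusted p = 0.93), and the arrays of the 2 times overlapped. Vegfa, the angiogenic growth factor, was at 0.19 (SE 0.13, adjusted p = 0.33). Ero1a, counted in this list too, rose by 1.49 as given above.

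Of 22 genes of glycolysis and lactate transport, 1 was higher and 8 lower, with a median of -0.23. Ldha, the lactate dehydrogenase subunit of fermenting tissue, read 14.35, 14.33 and 14.21 at 3 h and 13.55, 13.62 and 13.58 at 12 h, a fall of 0.71 (SE 0.08, adjusted p = 7.3e-06). Pdk1, a kinase that inhibits pyruvate dehydrogenase, fell by 0.77 (SE 0.08, adjusted p = 6.1e-06). Pfkl, a phosphofructokinase, fell by 0.98 (SE 0.12, adjusted p = 2.9e-05), although its other kept probe sets ranged from -0.49 to 0.38. Pgam1 fell by 0.45, Pkm by 0.44 and the hexokinase Hk2 by 0.39. The glucose transporter Slc2a1 was at 0.12 (SE 0.08, adjusted p = 0.34).

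The core of the hypoxia element, ACGTG, is short and common. On either strand it occurred in 24.9% of tested genes with a window, in 28.5% of genes lower at 12 h and in 27.3% of genes higher. It occurred in 15 of 23 tested HIF list genes with a window and in 12 of 22 glycolytic genes, and among the called members in 8 of 11 and 4 of 9. The stretches of Egln1 (chr8:124949288-124949352, minus strand), Egln3 (chr12:54204069-54204124, minus) and Ldha (chr7:46845629-46845694, plus) are shown because these were leading genes of the 2 groups that fell. In Ldha the 5 letters match on both strands within CACGTG.
Egln1: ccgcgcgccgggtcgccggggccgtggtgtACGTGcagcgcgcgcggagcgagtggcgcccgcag
Egln3: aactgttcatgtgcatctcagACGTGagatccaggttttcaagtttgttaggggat
Ldha: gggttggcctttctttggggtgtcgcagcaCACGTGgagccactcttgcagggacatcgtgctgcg

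Glycogen genes moved in both directions. Of 17 tested, 3 were higher and 6 lower, with a median of -0.26. Stbd1, a glycogen-binding protein that carries glycogen to the lysosome, read 7.23, 7.38 and 7.36 at 3 h and 8.98, 9.02 and 8.95 at 12 h, a rise of 1.66 (SE 0.17, adjusted p = 3.1e-06). Most of that rise came after 6 h, when 2 arrays read 7.74 and 7.72 and the third 7.18. Ppp1r3d, a subunit that targets protein phosphatase 1 to glycogen, fell by 1.07 (SE 0.09, adjusted p = 4.2e-07). The glycogen synthase Gys1 fell by 0.68 (other kept probe set 0.11) and the branching enzyme Gbe1 by 0.49, a call lost without the first 12 h array (adjusted p = 0.0618) or the first 3 h array (adjusted p = 0.063). Gyg, the primer protein glycogenin, rose by 0.39.

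Most genes that hold and release fat fell. Of 15 lipolysis and lipid droplet genes tested, 10 were lower and 1 higher, with a median of -0.60, the lowest median of the lists described here. Pnpla3, a lipase of the droplet surface, read 11.89, 11.73 and 11.89 at 3 h, 11.82, 11.71 and 11.74 at 6 h, and 10.40, 10.47 and 10.41 at 12 h. Its fall was 1.41 (SE 0.08, adjusted p = 3.7e-09), and the 6 h arrays stood with the 3 h arrays. Lipe, the hormone-sensitive lipase, read 11.85, 11.89 and 11.93 at 3 h and 10.95, 10.87 and 11.09 at 12 h, a fall of 0.92 (SE 0.09, adjusted p = 1.1e-06). Mgll, the monoglyceride lipase that completes lipolysis, read 9.07, 9.17 and 8.76 at 3 h and 7.74, 7.83 and 7.50 at 12 h, a fall of 1.31 (SE 0.16, adjusted p = 2.1e-05). Pnpla2, the lipase ATGL that opens lipolysis, fell by 0.22 (SE 0.06, adjusted p = 0.022). Pnpla2 lost its call without the first or second 12 h array or the third 3 h array (adjusted p up to 0.0943).

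Cidec, the protein that fuses droplets in fat cells, read 13.53, 13.37 and 13.40 at 3 h and 12.20, 12.40 and 12.26 at 12 h, a fall of 1.15 (SE 0.07, adjusted p = 7.9e-09). G0s2, an inhibitor of ATGL, fell by 0.91 (SE 0.08, adjusted p = 6e-07). Pde3b, the phosphodiesterase through which insulin restrains lipolysis, fell by 0.75, and the droplet coat protein Plin4 by 0.64. Plin2, a coat protein found in most cell types, was the member that rose, by 0.35 (SE 0.06, adjusted p = 0.00091).

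In triglyceride synthesis, 8 of 16 genes were lower and 0 higher, with a median of -0.28. Pck1, which makes glycerol backbone in adipocytes, read 9.80, 10.10 and 9.93 at 3 h and 7.83, 7.46 and 8.12 at 12 h. It had the largest fall of all genes measured on both sides, at 2.14 (SE 0.16, adjusted p = 9.8e-08), or 4.39-fold, and its other kept probe set was at -2.73. Gpd1, the next source of glycerol phosphate, fell by 0.80 (SE 0.08, adjusted p = 2.4e-06), but its other kept probe sets ranged from -0.37 to 1.85. The mean of all its probe sets reversed the sign, at 0.23 (adjusted p = 0.60). The glycerol channel Aqp7 fell by 0.95 (SE 0.20, adjusted p = 0.0032). The acyltransferases Agpat2 and Gpam fell by 0.44 and 0.42, and the phosphatase Lpin1 by 0.40. The other kept probe set of Gpam was at 0.10.

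Fatty acid synthesis genes moved in both directions. Of 21 genes, 5 were higher and 4 lower, with a median of 0.03. Fasn, the fatty acid synthase, read 13.56, 13.40 and 13.54 at 3 h and 12.84, 12.98 and 13.02 at 12 h, a fall of 0.55 (SE 0.10, adjusted p = 0.00056), and Srebf1, its regulator, fell by 0.68 (SE 0.07, adjusted p = 1.6e-06). Acacb, the acetyl-CoA carboxylase of mitochondria, fell by 0.67, while Acaca, the cytosolic form, was at 0.04 (SE 0.09, adjusted p = 0.82). The elongases Elovl3 and Elovl6 rose by 1.12 (SE 0.33, adjusted p = 0.026) and 0.77 (SE 0.12, adjusted p = 0.00017). Scd3 rose by 1.52 (SE 0.18, adjusted p = 1.3e-05), whereas its relatives Scd1 and Scd2 were each at 0.03. Acacb lost its call without the first or the third 12 h array or the first or second 3 h array (adjusted p up to 0.135), and Elovl3 without the second or the third 12 h array or the second 3 h array (adjusted p up to 0.124). The desaturase genes are similar in sequence, and cross-hybridisation was not tested.

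Fatty acid uptake and activation, 16 genes, held 3 higher and 2 lower. The activating enzyme Acsl4, which prefers arachidonic acid, read 10.55, 10.63 and 10.80 at 3 h and 11.57, 11.74 and 11.93 at 12 h, a rise of 1.08 (SE 0.11, adjusted p = 2.1e-06). Acsl3 rose by 0.53, and Angptl4, a secreted inhibitor of lipoprotein lipase, fell by 0.98 (SE 0.08, adjusted p = 3.4e-07). Cholesterol synthesis and uptake differed from the fat genes, with 6 of 20 higher and 1 lower and a median of 0.18. Idi1 rose by 0.87 (SE 0.10, adjusted p = 1.2e-05), Lss by 0.65, Cyp51 by 0.62 and Sqle by 0.45, all enzymes of cholesterol synthesis. Hmgcs1, an early enzyme, was at -0.02 (SE 0.07, adjusted p = 0.86). Its other kept probe sets ranged from -0.22 to 0.26, and 1 of them was called higher in a fit over all kept probe sets. Other kept probe sets of Lss reached down to -0.15.

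**Figure D3:**
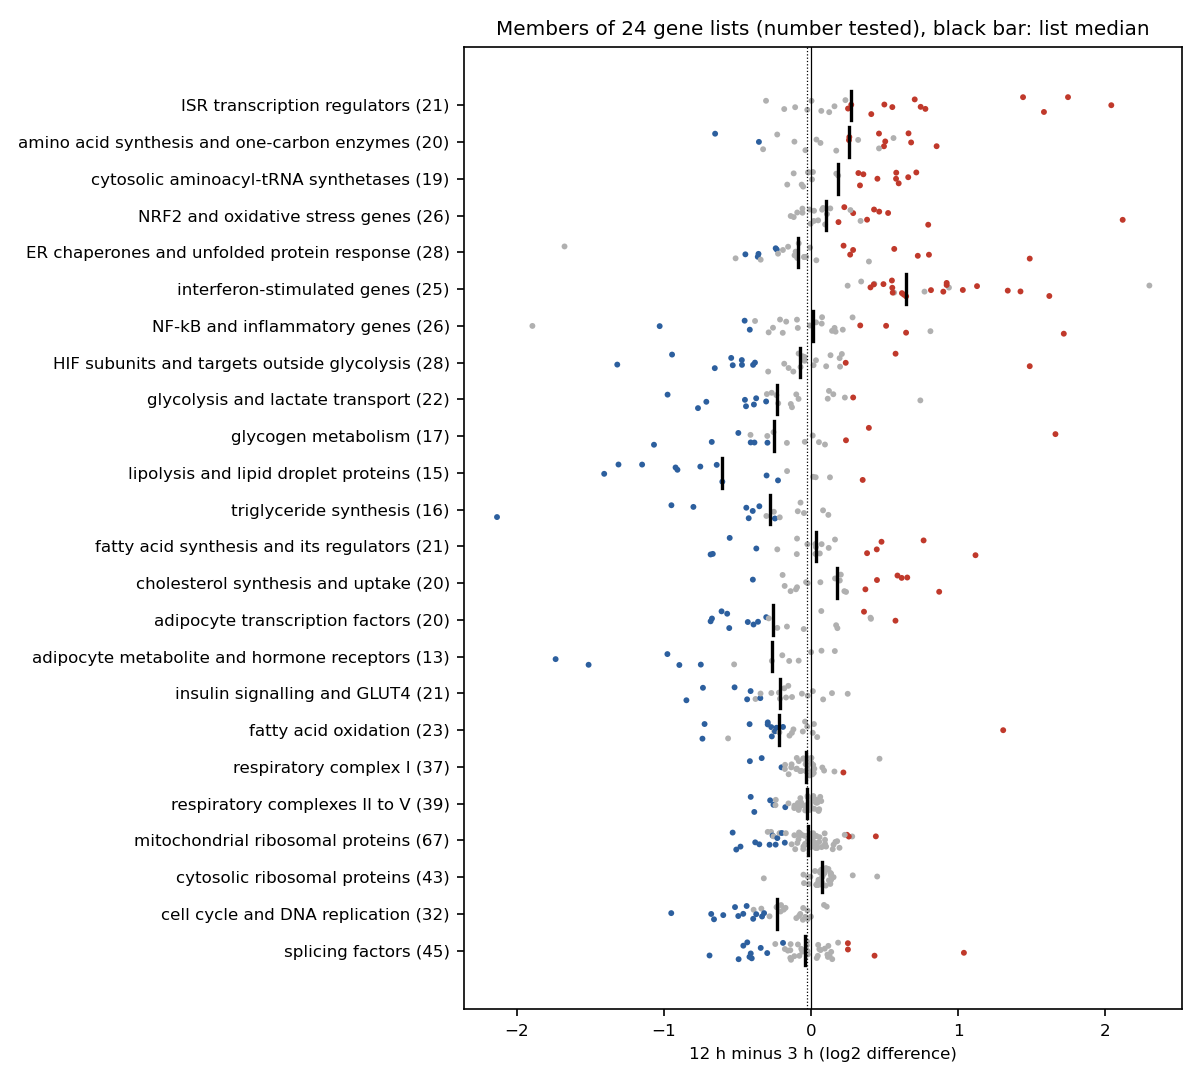
Log2 difference, 12 h minus 3 h, of every tested member of 24 gene lists, with red for genes higher and blue for genes lower at an adjusted p under 0.05, grey for genes not called, a black bar at the list median and a dotted line at the median of all genes. Interferon-stimulated genes lie wholly right of 0 with a median of 0.65, and lipolysis and lipid droplet genes have a median of -0.60.

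**Figure D4:**
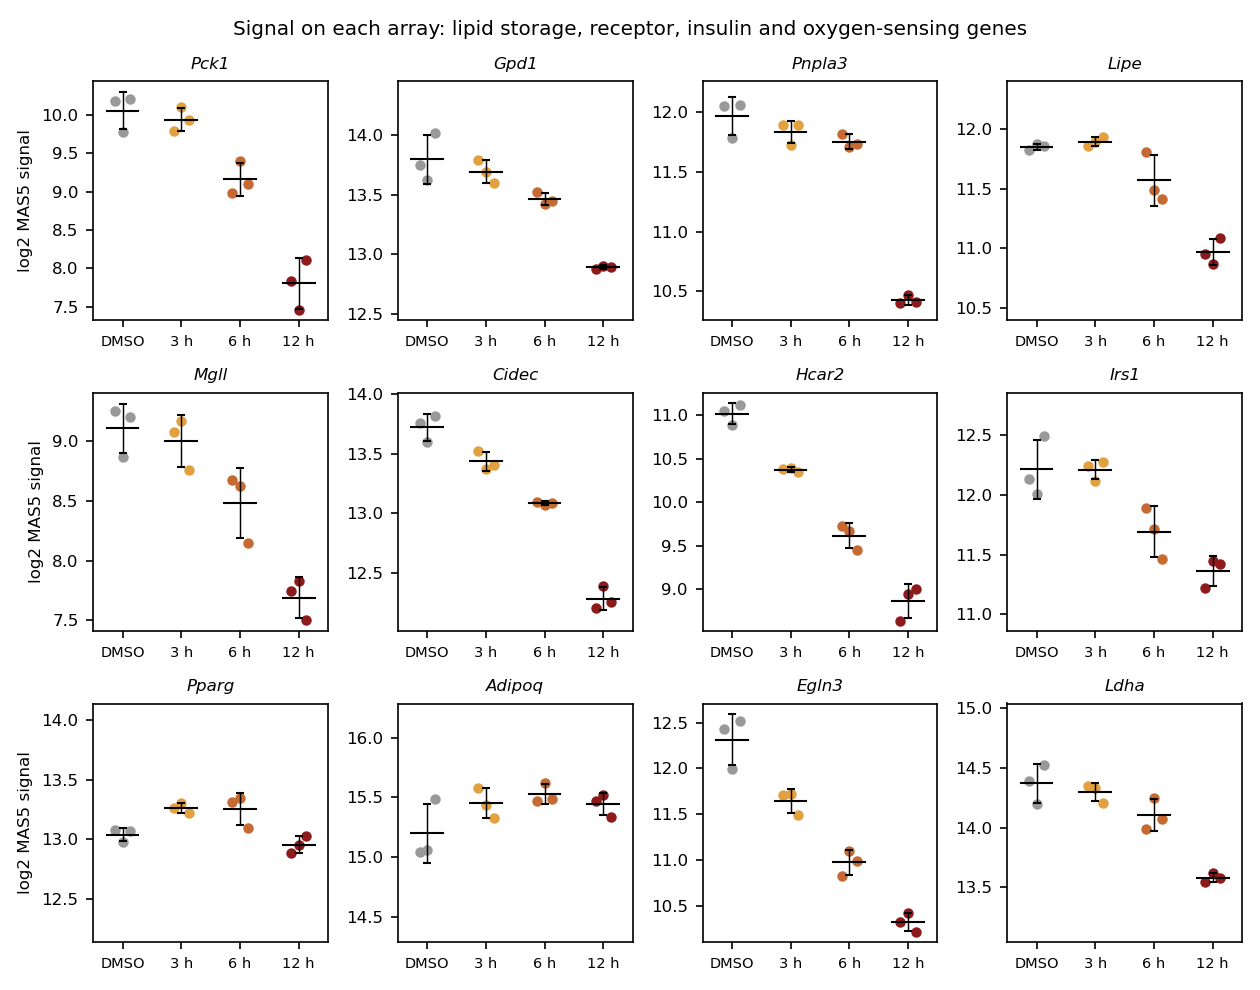
Log2 MAS5 signal of 12 genes on each of the 12 arrays, by group, with 1 point an array, a bar at the group mean and whiskers of 1 SD (n = 3). All panels but Adipoq show 12 h arrays below the 3 h arrays, and in Pnpla3 the 6 h arrays still lie with the 3 h arrays. The vertical axes differ between panels and do not start at 0.

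The regulators of the fat cell were lower in part. Of 20 adipocyte transcription factors, 9 were lower and 2 higher, with a median of -0.26. Pparg, the master regulator of adipocyte genes, read 13.26, 13.31 and 13.22 at 3 h and 12.89, 12.95 and 13.03 at 12 h, a fall of 0.30 (SE 0.07, adjusted p = 0.0039). Cebpa, its partner, fell by 0.39 (SE 0.07, adjusted p = 0.0013), and Klf15, Ebf1 and Tle3 fell by 0.61, 0.57 and 0.67. The mean of the probe sets of Tle3 was not called (-0.34, adjusted p = 0.388). The pluripotency-associated factor Klf4 rose by 0.57 and the glucocorticoid-responsive factor Klf9 by 0.36.

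Some of the most abundant products of the fat cell were not called. Of 17 mature adipocyte markers, 10 were lower and 0 higher, with a median of -0.35, and 7 were not called. Adipoq, which encodes the hormone adiponectin, read 15.58, 15.44 and 15.33 at 3 h and 15.47, 15.52 and 15.34 at 12 h, a difference of -0.01 (SE 0.10, adjusted p = 0.97). The fatty acid carrier Fabp4 was at 0.03 (SE 0.08, adjusted p = 0.88) and the lipoprotein lipase gene Lpl at 0.07 (SE 0.09, adjusted p = 0.68). These 3 genes lay among the brightest on the arrays, and whether their probe sets were saturated was not tested. The mean of the probe sets of Fabp4 was at -0.36 (adjusted p = 0.0398). Of 19 adipokines and secreted factors, 2 rose and 5 fell. Retn, resistin, fell by 0.46 and Angptl4 by 0.98, while Nampt rose by 0.51 with another kept probe set at -0.26. Lep, the gene for leptin, had a 12 h mean under the threshold and was at -1.52 (SE 0.64, adjusted p = 0.12), with one 12 h array at 2.61 and the other two at 5.95 and 6.19.

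Of 13 receptors tested through which adipocytes sense metabolites, 5 fell and 0 rose, with a median of -0.27. Hcar2, the receptor for ketone bodies and niacin, read 10.38, 10.40 and 10.35 at 3 h and 8.64, 8.95 and 9.0 at 12 h, a fall of 1.51 (SE 0.10, adjusted p = 4.1e-08). Hcar1, the lactate receptor, read 7.04, 7.60 and 7.75 at 3 h and 6.23, 5.25 and 5.71 at 12 h, where the mean was under the threshold, so it was at least 2.92-fold lower (adjusted p = 0.00029). Mc2r, the receptor for corticotropin, fell by 0.98, Ffar4, which senses long-chain fatty acids, by 0.90, and Sucnr1, the succinate receptor, by 0.75.

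In insulin signalling, 6 of 21 genes fell and 0 rose, with a median of -0.21. Irs1, the main docking protein of the insulin receptor, read 12.24, 12.12 and 12.27 at 3 h and 11.22, 11.45 and 11.42 at 12 h, a fall of 0.85 (SE 0.11, adjusted p = 4.3e-05). Irs2, its relative, fell by 0.74 (SE 0.15, adjusted p = 0.0024), and the transcription factors Foxo3 and Foxo1 by 0.52 and 0.41. Akt2 fell by 0.34, with its other kept probe sets between -1.44 and 0.30. Foxo1 lost its call without the first 12 h array (adjusted p = 0.213) or any one 3 h array. The glucose transporter Slc2a4, GLUT4, was at -0.18 (SE 0.11, adjusted p = 0.29), with 10.63, 10.48 and 10.67 at 3 h and 10.30, 10.28 and 10.66 at 12 h. Insr, the receptor itself, was at -0.27 (SE 0.10, adjusted p = 0.063). Of 13 AMPK subunits and upstream kinases, only the regulatory subunit Prkag2 changed, with a fall of 0.37. Of 8 thioredoxin-interacting and arrestin-domain genes only Txn2 changed, by -0.29, and Txnip, an inhibitor of glucose uptake, was at -0.05 (SE 0.07, adjusted p = 0.73). Prkag2 lost its call without the first or second 12 h array or the second or the third 3 h array, and Txn2 without any array but the second 3 h array (adjusted p up to 0.109 and 0.127).

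Of 23 fatty acid oxidation genes, 10 were lower and 1 higher, with a median of -0.22. Cpt2, the carnitine acyltransferase of the inner membrane, read 11.94, 11.83 and 11.83 at 3 h and 11.16, 11.14 and 11.13 at 12 h, a fall of 0.72 (SE 0.08, adjusted p = 7.7e-06). Ehhadh, a peroxisomal enzyme of the same pathway, fell by 0.74, and Etfdh, which passes electrons from fat oxidation to the respiratory chain, by 0.42. Cpt1a, the carnitine acyltransferase of the outer membrane, was at -0.12 (SE 0.13, adjusted p = 0.60). Acot2, a mitochondrial acyl-CoA thioesterase, was the exception and rose by 1.31 (SE 0.12, adjusted p = 7.1e-07). The 10 became 5 without the first 12 h, the first 3 h or the second 3 h array, and 6 without the third 12 h array. Ehhadh lost its call without any array but the second 3 h array (adjusted p up to 0.202).

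Of 37 subunits and assembly factors of respiratory complex I, 1 was higher and 3 lower, and of 39 genes of complexes II to V, 0 were higher and 5 lower, shares of 10.8% and 12.8% against 17.7% for all genes. The medians were -0.03 for both. The largest falls were in Ndufaf1, an assembly factor of complex I, by 0.42 and Sdhd, an anchor subunit of complex II, by 0.41. Leaving out the first or the third 12 h array, or the first or second 3 h array, left 3 of the 5 genes of complexes II to V called. Of 67 mitochondrial ribosomal proteins, 3 were higher and 11 lower, with a median of -0.02, and the 11 became 5 to 8 when any one of the 6 arrays was left out. Of 26 genes of the citric acid cycle and pyruvate entry, 1 rose and 6 fell. Ogdh, the 2-oxoglutarate dehydrogenase, fell by 0.46 and Pdp1, which activates pyruvate dehydrogenase, rose by 0.44. The mean of the probe sets of Ogdh was not called (-0.39, adjusted p = 0.34).

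Of 21 genes for the breakdown of branched-chain amino acids and propionate, 6 were lower and 0 higher, and all 21 differences were below 0, with a median of -0.14. Acad8, which oxidises the valine intermediate, fell by 0.51 (SE 0.09, adjusted p = 0.00091), and Pcca, a subunit of propionyl-CoA carboxylase, by 0.40. Without the first 12 h array, 3 of these genes were called in place of 6, and Pcca lost its call without the first or second 12 h array or the second 3 h array (adjusted p up to 0.062). Among 16 coactivators and regulators of mitochondrial biogenesis, 3 rose and 3 fell. Ppargc1a, which encodes PGC-1α, rose by 0.41 (SE 0.12, adjusted p = 0.027), and Ppargc1b fell by 0.38 (SE 0.09, adjusted p = 0.0086). The 3 higher genes became 1 without the third 12 h array or the first or the third 3 h array, and the 3 lower became 1 without the third 3 h array. Ppargc1a lost its call without the second or the third 12 h array or the first or the third 3 h array (adjusted p up to 0.121), and Ppargc1b without the third 3 h array (adjusted p = 0.0537).

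Of 13 core clock genes, 2 were higher and 0 lower, and of 11 output genes, 2 were higher and 1 lower, shares of 15.4% and 27.3% beside 17.7% for all genes. Dbp, a transcription factor whose level cycles with the clock, read 10.67, 10.72 and 10.58 at 3 h and 11.58, 11.59 and 11.81 at 12 h, a rise of 1.01 (SE 0.10, adjusted p = 1.7e-06). Nr1d2, a repressor of the clock, rose by 0.72 (SE 0.06, adjusted p = 3.5e-07), and its relative Nr1d1 was at 0.81 (SE 0.47, adjusted p = 0.28). Per3 rose by 0.51 (SE 0.13, adjusted p = 0.012), whereas Per1 was at 0.00 (SE 0.12), Arntl (BMAL1) at -0.06 (SE 0.11, adjusted p = 0.75) and Clock at 0.01 (SE 0.08, adjusted p = 0.96). Per3 lost its call without the second 12 h array (adjusted p = 0.0552) or the first 3 h array (adjusted p = 0.0762). The mean of its probe sets was not called either (0.57, adjusted p = 0.189). DBP is known to bind D-boxes, and the Per3 promoter holds the D-box letters TTATGNAA at 2 places on its own strand in the 250 bases before its start (chr4:151044786-151044900, minus strand, RefSeq GRCm38.p6), against 2.15% of tested genes with a match on either strand. On either strand those letters occurred in 2 of 11 tested core clock genes with a window and 1 of 10 output genes. The E-box CACGTG occurred in 3 and 2 of them, beside 9.80% of all tested genes. The Per3 stretch below is from a called gene that holds the D-box letters. A match is not evidence of a bound site, and control of Per3 by DBP was not tested.
Per3: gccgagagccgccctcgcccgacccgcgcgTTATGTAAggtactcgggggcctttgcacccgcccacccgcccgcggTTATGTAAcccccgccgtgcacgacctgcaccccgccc

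Several proliferation and splicing genes fell. Of 32 cell cycle and DNA replication genes, 12 were lower and 0 higher, with a median of -0.23. Cdc6, which licenses replication origins, fell by 0.95 (SE 0.23, adjusted p = 0.0069), Mcm4, a subunit of the replicative helicase, by 0.68 (SE 0.08, adjusted p = 1.1e-05) and Rrm2, a subunit of ribonucleotide reductase, by 0.66 (SE 0.08, adjusted p = 1.2e-05). Of 45 splicing factors, 4 were higher and 10 lower. Srsf2 fell by 0.69 (SE 0.08, adjusted p = 8.6e-06), Srsf6 by 0.49 and Srsf3 by 0.46, and Taf15, an RNA-binding protein, rose by 1.04 (SE 0.25, adjusted p = 0.0073). None of 43 cytosolic ribosomal protein genes was called by limma at an adjusted p under 0.05, and their median was 0.08. At an unadjusted p under 0.05, 3 of the 43 passed.

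Caveolae, the membrane pits abundant in adipocytes, are built from caveolins and coated by cavins. Of 7 caveolin and cavin genes, 3 fell and 0 rose. Cavin1 read 13.37, 13.30 and 13.34 at 3 h and 12.67, 12.58 and 12.61 at 12 h, a fall of 0.72 (SE 0.05, adjusted p = 8.7e-08), and Cavin2 fell by 0.76 (SE 0.06, adjusted p = 2.9e-07). Cav1, the main caveolin of fat, was at -0.03 (SE 0.07, adjusted p = 0.84). Of 33 lysosomal genes, 6 were higher, 0 lower and 27 not called, with a median of 0.14, so that 18.2% were called beside 17.7% of all genes. Mitf, a relative of TFEB, rose by 0.57, and Fnip1, a partner of folliculin, by 0.52. Averaged over their probe sets, Mitf (1.24, adjusted p = 0.0856) and Fnip1 (0.31, adjusted p = 0.0521) were not called. The 6 higher lysosomal genes became 3 without the first 12 h or the third 3 h array.

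Among the genes with large changes were several outside these groups. Mreg, which encodes melanoregulin, an organelle transport protein, had the largest rise of genes measured on both sides. It read 6.92, 6.95 and 6.79 at 3 h and 9.0, 8.88 and 9.20 at 12 h, a rise of 2.14 (SE 0.25, adjusted p = 1.2e-05). Tbpl1, a relative of the TATA-binding protein, rose by 1.43 (SE 0.10, adjusted p = 6.9e-08), with its other kept probe set at 0.64. Rasd1, a dexamethasone-induced small GTPase, read 8.93, 8.93 and 8.87 at 3 h and 7.50, 7.58 and 7.16 at 12 h, a fall of 1.50 (SE 0.16, adjusted p = 3.9e-06). Abcd2, a peroxisomal fatty acid transporter, fell by 1.50 (SE 0.22, adjusted p = 0.00014), and its other kept probe sets were lower still, at -3.15 and -2.81. Ldb3, a protein of the muscle Z-disc, fell by 1.53, Ankef1 by 1.63, Pdzd2 by 1.56, Nhsl2 by 1.42, Aatk by 1.35 and Rgs16, a brake on G-protein signalling, by 1.35.

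Pi15, a secreted protease inhibitor, fell by 1.56 (SE 0.51, adjusted p = 0.042), with 1 reading of 4.13 beside 6.90 and 6.98 at 12 h. Without that first 12 h array its difference was -0.62 (adjusted p = 0.121), and its call was also lost without any one 3 h array. Mturn fell by 1.45, although its other kept probe set was at 0.05. Where a group mean lay under the threshold, a fold is a bound, in which any value below the threshold counts as the threshold itself. B3galt2, a glycosyltransferase, was at least 4.64-fold lower at 12 h, from 8.03, 7.77 and 8.15 to 5.11, 5.51 and 5.11 (adjusted p = 1.6e-07). Spon2 was at least 3.02-fold lower, Rdh12, a retinol dehydrogenase, at least 2.16-fold, Eppk1 at least 2.04-fold and Rerg at least 1.98-fold. In the other direction, the stress kinase Plk3 was at least 2.50-fold higher, Car6 at least 2.07-fold, Ccdc184 and Leng9 each at least 1.80-fold, Otp at least 1.91-fold and Tmem200c at least 1.48-fold. Other kept probe sets of Otp and Tmem200c were at -0.08 and -2.31. On the values behind its bound, with dim readings set to the threshold, Tmem200c was not called (0.56, adjusted p = 0.115). B3galt2, Spon2, Rdh12, Rerg and Plk3 kept their calls when any one array was left out. Eppk1 lost its call without the first 12 h or the third 3 h array, Car6 without the first 12 h or the third 3 h array, and Ccdc184 without the third 12 h or the second 3 h array. Leng9 and Otp kept theirs without 2 of the 6 arrays and Tmem200c without 1, the first 3 h array.

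The 6 h arrays entered the fit through the filter on dim probe sets and the shared estimate of spread, and not through the contrast. The 6 h mean lay between the 3 h and 12 h means in 1937 of the 2150 called genes (90.1%), beside 47.5% of all genes tested. The share among called genes is favoured by the choice of genes with a large gap between those times. The share of the 3 h to 12 h difference already present at 6 h was chosen as a measure after the data had been seen, and differences in it were not tested. Over the 130 genes that changed by at least 1, its median was 38.0%. It was 47.1% in the 54 higher genes and 31.3% in the 76 lower genes. Among called genes that changed by at least 0.5, the medians lay closer, at 44.2% in 298 higher genes and 41.1% in 451 lower genes. Among the called genes of single lists, the median was 74.8% for the 8 amino acid enzymes that rose, 69.1% for the 9 synthetases and 62.4% for the 12 stress response regulators. It was 39.2% for the 18 interferon genes and 37.3% for the 10 lipolysis and droplet genes that fell. The 8 triglyceride synthesis genes and 10 fat oxidation genes that fell stood at 27.1% and 19.1%. High and low shares occurred among both rises and falls. The median was 71.2% for the 6 insulin signalling genes and 66.6% for the 10 splicing factors that fell. It was 35.2% for the 9 NRF2 and oxidative stress genes and 26.7% for the 4 cytosolic heat shock genes that rose.

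Single genes spread over the whole range. Ptgs2 and Slc7a11 had reached 79.0% and 77.9% of their rise at 6 h, and Ddit3 and Trib3 66.5% and 66.2%. Hmox1 stood at 37.1%, Ero1a at 25.4%, Mreg at 24.5% and Stbd1 at 13.7%. Among falls, Egln3 and Hcar2 stood at 50.6% and 50.3%, Pck1 at 36.4%, Ankef1 at 9.8%, Pi15 at 7.9% and Pnpla3 at 5.8%. Where a 6 h group was widely spread, as in Ankef1 with 9.48, 8.42 and 8.50, this share is imprecise.

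**Figure D5:**
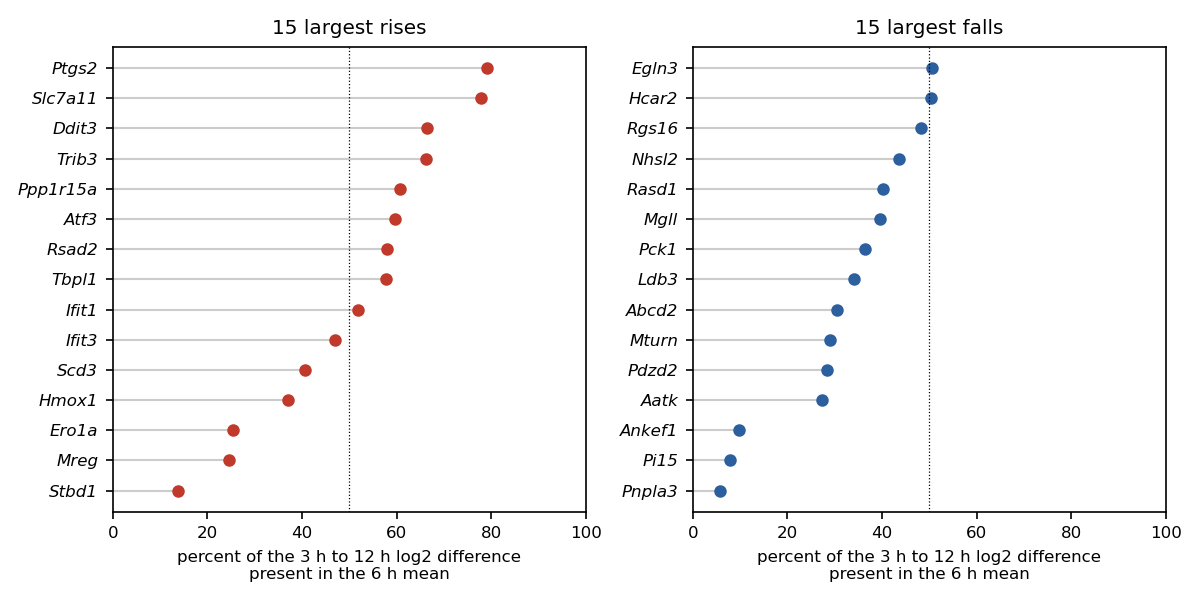
Percent of the log2 difference between the 3 h and 12 h means that was present in the 6 h mean, for the 15 largest rises and 15 largest falls measured on both sides, with the dotted line at 50%. The share passed 50 in 9 of the 15 rises and in 2 of the 15 falls, and ran from 5.8 for Pnpla3 to 79.0 for Ptgs2.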

How the data were processed

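The data of 12 arrays were used as deposited: log2 signals made by the authors with MAS5 (its version is not given in the sources used here), per the submitters' processing notes, 1 column for each array. Probe sets were named through GEO's platform annotation: of 45037 probe sets other than controls, 34945 had 1 gene symbol, 932 several and 9160 none, and only the first kind was used. Probe sets that reached 5.77 on 3 or more of the 12 arrays were kept, and the brightest kept probe set stood for its gene. A probe set whose name ends in _x_at was used only where no other was kept. Those with other endings, _s_at included, were not treated differently.

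Group means over all 12 arrays were fitted with limma 3.58.1 in R 4.3.3, with moderated variances that follow intensity, and 12 h was contrasted with 3 h. p-values were adjusted by Benjamini and Hochberg over 12136 genes. The 58 gene lists and the members were chosen with earlier results of these data known. Named were the 15 largest rises and falls that were called, measured on both sides and without overlap between the times, up to 6 bounds a direction, up to 6 called members of each list with members without a call where their role matters, and a short set of single genes. Fgf21 and Gdf15 belong to that set and did not enter the test, and 1 further item is not reported here. Other alternatives varied the arrays fitted, normalization, filter, probe set and variance prior. The number of arrays limits the precision.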

Additional observations from a re-analysis of the deposited data

How the results depend on the processing

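The 2150 genes called became 1562 to 2257 under the other settings of arrays, normalization, filter, dim values, probe sets and variance prior, and 1599 to 1900 when any one of the 6 arrays was left out. The higher genes then numbered 696 to 844, the lower genes 882 to 1056, and those that changed by at least 1 numbered 126 to 169. Averaging the probe sets of a gene gave the lowest count of all, with 1336 (62.1%) of the 2150 still called and 1 of them with the opposite sign. Under that setting Fabp4 was at -0.36 (adjusted p = 0.0398) and Gpd1 at 0.23 (adjusted p = 0.60), both with the sign turned, and the cause was not tested. Of the 182 called genes named here, 28 lost their call under it, 23 without the intensity trend in the variances and 31 when at least 1 of the 6 arrays was left out, while 5 lost it with quantile normalization. Arrays with the same replicate number in the 2 groups shared only a number, with deviations that correlated at 0.013, -0.001 and 0.029. With the number as a replicate block 2139 genes were called, and of the named genes 2 lost their call, Hspa5 (adjusted p = 0.0558) and Il6 (adjusted p = 0.0591). Dim genes were called less often, and 3 arrays a group limit what small differences can be seen.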

Other observations

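Other gene lists, written with earlier results of these data known, moved in both directions or little, beside 8.01% of all tested genes called higher and 9.71% called lower. Of 35 mitochondrial carriers of the SLC25 family, 8 were higher and 4 lower, with a median of -0.02. Slc25a33, a carrier of pyrimidine nucleotides, rose by 0.90 (SE 0.07, adjusted p = 9.8e-08). The 4 lower carriers became 2 without the first or the third 12 h array and 1 without the first 3 h array. Of 22 immediate early genes, 3 were higher and 4 lower, with a median of 0.03. Maff and Ier3 rose by 0.82 and 0.75, while Jun, a subunit of the factor AP-1, fell by 0.47 (SE 0.07, adjusted p = 0.0002), and its other kept probe set was at -0.66. The 4 lower genes became 2 without the first 12 h, the second 12 h or the third 3 h array.

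Of 50 ribosome biogenesis genes, 8 were higher and 3 lower, with a median of 0.04, and of 33 translation factors 8 were higher and 1 lower, with a median of 0.10. Without the second 12 h array the higher counts became 5 and 3, and the 3 lower ribosome biogenesis genes became 1 without the second 12 h or the third 3 h array. The higher translation factors numbered 5 without the first 12 h or the first 3 h array and 4 without the second or the third 3 h array, while the 1 lower factor was lost without the first or second 12 h array or the first or the third 3 h array. Utp18, a processing factor of ribosomal RNA, rose by 0.45 (SE 0.08, adjusted p = 0.00084). Gabarapl1, a protein of autophagosome membranes, rose by 0.60 (SE 0.09, adjusted p = 0.00012) among 35 autophagy genes, of which 4 were higher and 3 lower.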
